A study of Mus musculus with 12 samples.

Results

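Levels of 6 keratin genes of simple epithelia, Krt7, Krt8, Krt18, Krt19, Krt20 and Krt23, were followed in the epithelium of the mouse small intestine from the embryo to the adult. The genes were chosen by name, and all 6 were found among the 23366 gene symbols counted in each of 12 RNA-seq libraries. The libraries form 4 groups of 3, on a mixed C57BL/6 CD1 background. The E12.5 and E14.5 groups are embryonic epithelium sorted as EpCAM+ CD31- CD45- living cells, each E12.5 library from 20 pooled embryos, with no pool size stated for E14.5. The ISC and AE groups came from 2-month-old Lgr5EGFP-Cre-ERT males, 1 gut per library. ISC are crypt cells with high Lgr5-EGFP, a reporter driven from the Lgr5 locus, so the gene that marks these cells was also the sorting gate. AE are villus cells labelled enterocytes, gated as EpCAM+ CD31- CD45- living cells like the embryonic ones, a gate that other epithelial cell types of the villus also pass. In all 6 embryonic libraries the age label names the other stage than the sample title. Titles were followed, so every comparison with an embryonic group rests on them. This covers the direction of every difference between E14.5 and E12.5, the order of the 2 stages, and which stage each adult group is set against.

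Keratins are the intermediate filament proteins of epithelial cells. A filament is built from pairs of 1 acidic type I and 1 basic type II keratin, and a keratin without a partner is degraded. In simple epithelia such as the intestine the type II chains are Krt8 and Krt7 and the type I chains are Krt18, Krt19, Krt20 and Krt23. In the mature gut the filaments are densest below the brush border of absorptive cells and are tied to neighbouring cells at desmosomes.

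Each library held between 12587626 and 45190749 reads counted in genes, and 15342 genes were tested. Levels are counts per 1000000 (CPM) scaled by the trimmed mean of M values (TMM) and are given as mean ± SD of 3 libraries. None of 5 markers of intestinal epithelium was at 0 in any group, and the epithelial marker Epcam, also used in the gate, was at 483 ± 46.9 CPM in E12.5 and 1603 ± 406 CPM in AE. The stem-cell marker Olfm4 stood at 5743 ± 230 CPM in ISC and still at 606 ± 58.7 CPM in AE, and 8 goblet-cell markers summed to between 19426 and 32738 CPM in AE, so marker RNA of other epithelial cell types was present in AE. It was present in ISC as well, where the goblet-cell markers summed to between 1218 and 1675 CPM and 4 Paneth-cell markers to between 2211 and 3756 CPM, against 179 to 220.1 and 8.79 to 9.99 CPM in E14.5. The summed level of 8 enterocyte markers was between 346 and 472 CPM in E12.5, between 849 and 878 in E14.5, between 784 and 1659 in ISC, and 28699, 58665 and 61001 CPM in AE replicates 1, 2 and 3. AE replicate 1, with the lowest enterocyte sum, also had the highest Paneth-cell sum in AE, 6498 CPM against 2691 and 2698. In these bulk samples, a change in the share of cells that use a gene and a change in RNA per cell cannot be told apart. Reads with several alignments were 3.06% to 5.96% of the reads listed for E12.5 and ISC but stand at 0 for every E14.5 and AE library, so the comparisons within libraries of 1 kind are AE against E14.5 and ISC against E12.5.

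All 6 genes passed the filter on low counts. Between E12.5 and E14.5, Krt7, Krt8, Krt19 and Krt23 rose and Krt20 fell, 5 of 6 genes, where 49.2% of all genes tested passed the threshold, 23.6% higher and 25.6% lower (edgeR quasi-likelihood test, Benjamini-Hochberg adjusted p under 0.05). Between E14.5 and ISC, Krt8, Krt18, Krt19 and Krt23 rose, 4 of 6, beside 60.7% of all genes (30.2% higher, 30.6% lower). The sums of goblet-cell and Paneth-cell markers were higher in ISC too, and their part in these rises was not tested. Between ISC and AE, Krt8, Krt19 and Krt20 rose while Krt18 and Krt23 fell, 5 of 6, beside 67.8% of all genes (32.6% higher, 35.2% lower). ISC differed from E12.5 in all 6, with only Krt20 lower, beside 68.5% of all genes (33.9% higher, 34.6% lower). AE differed from E14.5 in 5 of 6, all higher, beside 78.2% (36.7% higher, 41.5% lower), and from E12.5 in all 6, all higher, beside 82.1% (38.4% higher, 43.7% lower). Where the 3 libraries of a group are said below not to overlap those of another, the same held for 70.6% of all genes in E14.5 against E12.5, 72% in ISC against E14.5, 66.3% in AE against ISC, 73.9% in ISC against E12.5, 81.5% in AE against E14.5 and 82.5% in AE against E12.5. With 6 genes these counts are given beside that background, and nothing more is read from their number.

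**Figure D1:**
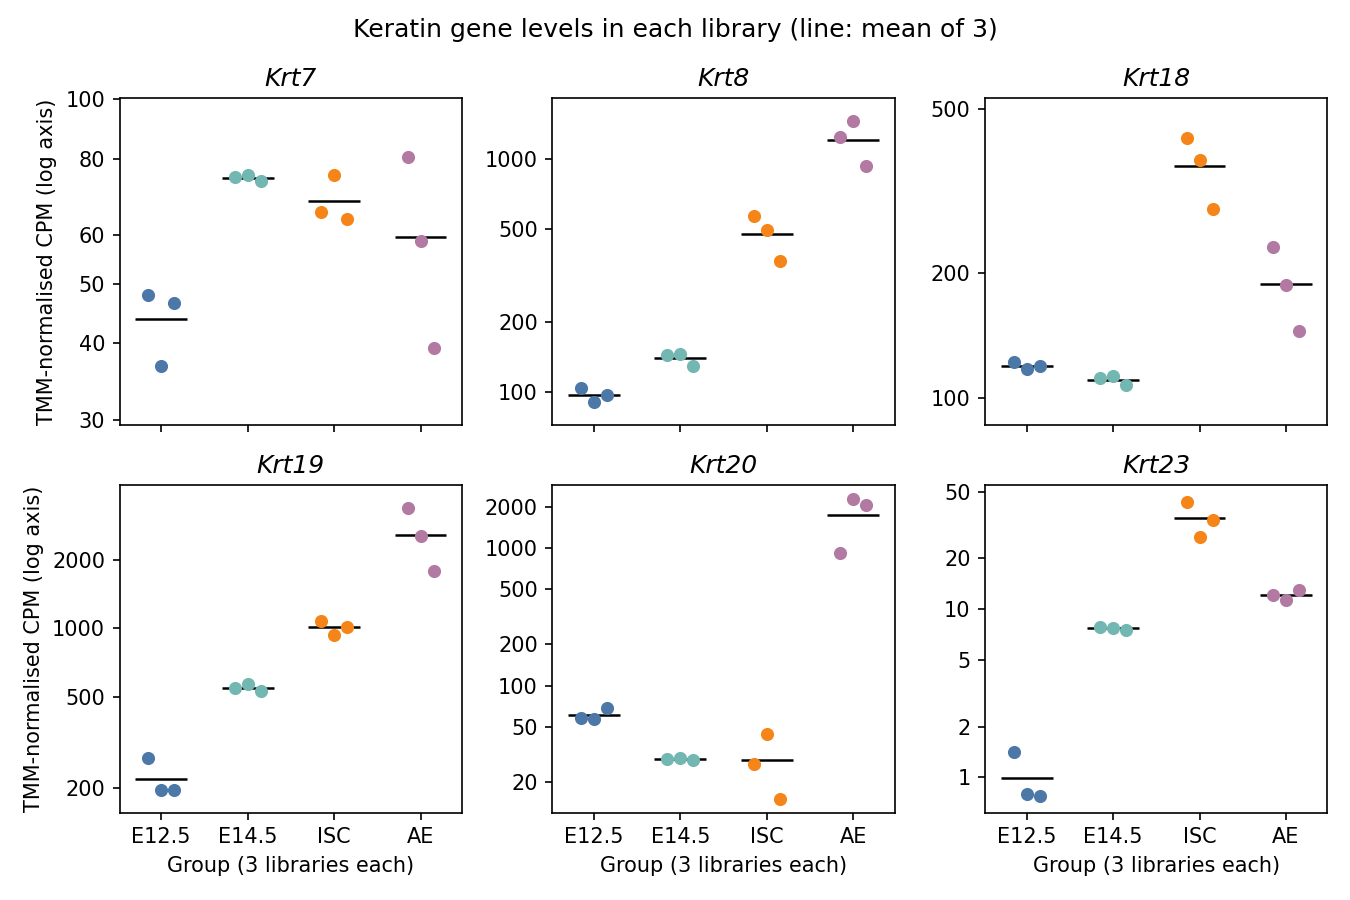
TMM-normalised CPM (log axis, a scale of its own for each gene) of the 6 keratin genes in each library of E12.5, E14.5, ISC and AE, with points in replicate order and a line at the mean of 3. Krt8 and Krt19 step up through all 4 groups, Krt20 is high only in the 3 AE libraries (912 to 2276 CPM), Krt18 and Krt23 peak in ISC, and Krt7 stays between 36.7 and 80.4 CPM.

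Krt8 and Krt18 encode the main type II and type I partners of simple epithelia. Their genes are near each other on chromosome 15 and run in opposite directions, and their start regions are shown because the levels of this pair parted between ISC and AE. The region of Krt20, on chromosome 11, is shown with them because Krt20 had the largest change of the 6 genes. Each runs from 250 bases before the annotated start to 50 bases from it (RefSeq, build GRCm38.p6), 5′ to 3′ on the strand of the gene. Capitals mark matches to TATAAA or CACCC on either strand.
Krt8, chr15:102004293-102004592, minus strand: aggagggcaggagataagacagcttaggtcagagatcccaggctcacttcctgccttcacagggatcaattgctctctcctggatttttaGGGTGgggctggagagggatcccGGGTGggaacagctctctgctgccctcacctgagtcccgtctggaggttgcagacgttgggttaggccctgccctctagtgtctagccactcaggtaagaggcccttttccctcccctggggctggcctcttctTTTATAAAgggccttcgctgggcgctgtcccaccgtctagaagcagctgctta
Krt18, chr15:102027966-102028265, plus strand: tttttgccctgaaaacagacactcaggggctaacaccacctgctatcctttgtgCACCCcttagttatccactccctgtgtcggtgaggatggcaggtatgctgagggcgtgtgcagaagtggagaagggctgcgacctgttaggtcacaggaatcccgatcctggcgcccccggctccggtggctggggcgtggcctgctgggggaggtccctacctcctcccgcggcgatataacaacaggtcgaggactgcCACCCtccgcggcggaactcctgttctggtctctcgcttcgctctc
Krt20, chr11:99438104-99438403, minus strand: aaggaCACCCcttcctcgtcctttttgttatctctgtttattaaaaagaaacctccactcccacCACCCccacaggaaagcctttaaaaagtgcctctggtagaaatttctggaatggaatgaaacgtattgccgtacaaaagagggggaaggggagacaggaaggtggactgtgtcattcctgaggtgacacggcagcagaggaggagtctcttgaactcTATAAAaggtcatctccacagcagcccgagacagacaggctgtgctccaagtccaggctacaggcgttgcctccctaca
Counting the annotated start as 1, TATAAA begins at -29 in Krt20 and at -1 in Krt8, where it overlaps a match on the other strand at -3. The Krt18 window holds no TATAAA match. CACCC begins at -245 and -186 in Krt20, at -196 and 5 in Krt18, and, on the other strand, at -160 and -137 in Krt8. TATAAA occurs in 13.6% and CACCC in 57.5% of 32851 promoter windows of this length. Searched as well on both strands were GGGCGG (35.7% of windows), TTTATG (11.9%) and TGANTCA (7.81%), with no match in these 3 windows. Of the other members, the Krt7 window holds 4 matches to GGGCGG and 1 to CACCC, and the Krt23 window 1 match to TTTATG at -32 on the other strand. A match describes letters only, and no binding was measured here.

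Krt8, the most used type II chain of the intestine, was at 104, 90.3 and 96.9 CPM in E12.5 and at 144, 146 and 130.04 CPM in E14.5. It was at 570.0, 495 and 367 CPM in ISC and at 1240.03, 1464 and 932 CPM in AE. Each group lay wholly above the one before it. The steps were log2 0.53 ± 0.17 (SE) from E12.5 to E14.5 (1.44-fold, edgeR adjusted p = 0.0211), 1.77 ± 0.18 from E14.5 to ISC (3.41-fold, edgeR adjusted p = 9.56e-07) and 1.35 ± 0.17 from ISC to AE (2.54-fold, edgeR adjusted p = 9.72e-06). Within libraries of 1 kind, Krt8 was 4.91-fold higher in ISC than in E12.5 and 8.65-fold higher in AE than in E14.5 (edgeR adjusted p = 4.89e-08 and 2.09e-09). The small embryonic step lost its call without E12.5 replicate 2 or 3, or without E14.5 replicate 1 or 2 (edgeR adjusted p = 0.0765, 0.0564, 0.0590 and 0.0641). Of the 50-base stretches of Krt8 transcripts, 29.7% also occur in transcripts of Krt8-ps or Gm36026, so the split of its reads is uncertain.

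Krt18, the type I partner of Krt8, was at 122, 117 and 119.7 CPM in E12.5 and at 112, 113 and 108 CPM in E14.5. It was at 425, 377 and 287 CPM in ISC and at 232, 188 and 146 CPM in AE. Every ISC library was above all others, and AE lay between ISC and the embryonic groups with no overlap. Krt18 rose by log2 1.71 ± 0.16 (SE) from E14.5 to ISC (3.27-fold, edgeR adjusted p = 5.85e-07), close to the step of Krt8, and then fell by 0.94 ± 0.16 on the log2 scale from ISC to AE (1.92-fold, edgeR adjusted p = 0.000121). Between the embryonic stages the difference was log2 -0.11 with a 95% interval from -0.45 to 0.23 (edgeR adjusted p = 0.586), although the libraries of both stages did not overlap. AE was still 1.70-fold above E14.5 and 1.58-fold above E12.5 (edgeR adjusted p = 0.000526 and 0.00163).

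The ratio of Krt18 to Krt8 counts within a library does not depend on how libraries are scaled. As log2 it was 0.30 ± 0.08 (SD, n = 3) at E12.5, -0.34 ± 0.05 at E14.5, -0.39 ± 0.03 for ISC and -2.69 ± 0.27 for AE, where the libraries stood at -2.42, -2.96 and -2.68. In AE the mean ratio was 0.155, against 0.763 in ISC. The 4 groups differed by an exact permutation test over all 369600 assignments of libraries to groups (p = 0.000195, adjusted over 9 such measures 0.000438). An exact test of 3 libraries against 3 cannot go below p = 0.10, so no pair of groups was tested alone. Divided by transcript length, the log2 ratio was 0.75 at E12.5, 0.11 at E14.5, 0.06 for ISC and -2.24 for AE, so that the pair was near equal in ISC on that scale. Krt8 shares 29.7% of its 50-base stretches with other genes, Krt18 0.72%, and reads with several alignments were listed for E12.5 and ISC only. How this moves the ratio between the 2 kinds of library was not tested. Within 1 kind, the ratio was lower in AE than in E14.5 and lower in ISC than in E12.5.

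**Figure D2:**
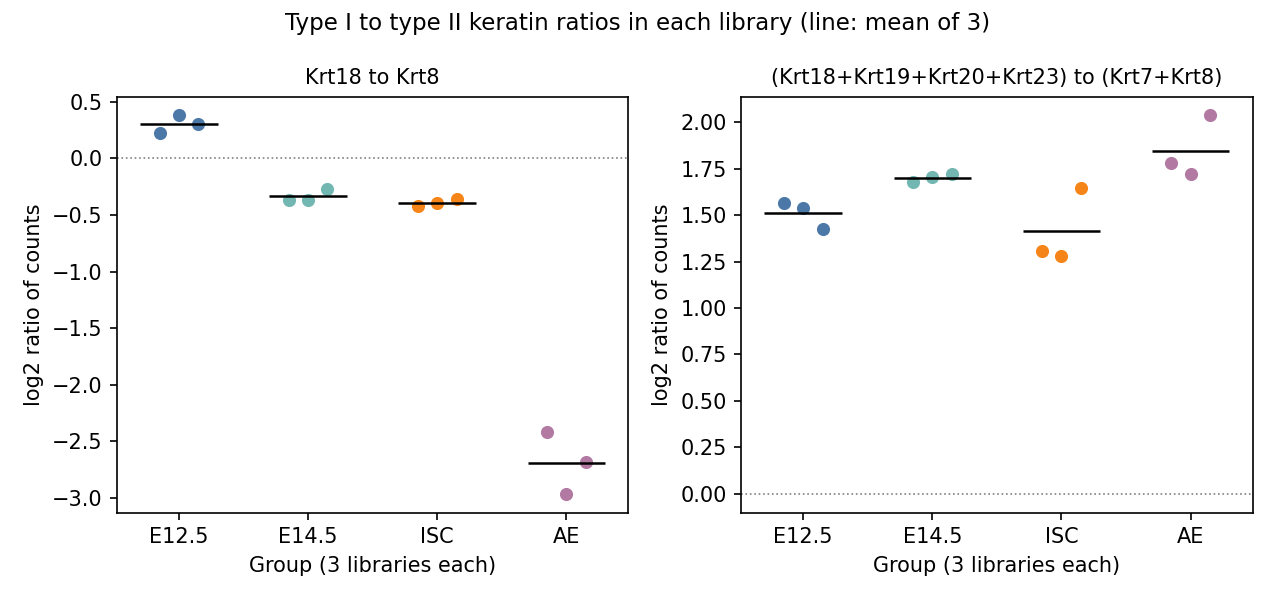
Log2 ratio of counts within each library for Krt18 to Krt8 (left) and for all 4 type I genes to both type II genes (right), by group, with a line at the mean of 3. The 3 AE libraries sit between -2.96 and -2.42 on the left, apart from all others, while on the right all 12 libraries sit between 1.28 and 2.04.

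The ratio of the summed type I counts to the summed type II counts moved far less. It was log2 1.51 ± 0.08 (SD, n = 3) at E12.5, 1.70 ± 0.02 at E14.5, 1.41 ± 0.20 for ISC and 1.85 ± 0.17 for AE. The groups differed by the exact permutation test (p = 0.0139, adjusted 0.0156). AE overlapped E14.5, with its lowest library at 1.72, and ISC spread across E12.5, with libraries at 1.31, 1.28 and 1.65. Per length the means were 2.08, 2.31, 1.85 and 2.09, and the highest group was then E14.5 in place of AE. The transcript length used for Krt7 was 4.094 kb, against 1.437 to 1.958 kb for the other members. These values rest on that length, and no other was tried.

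Krt19, a type I chain found across simple epithelia and the smallest keratin, was the most abundant of the 6 per length in every group. It was at 269, 194 and 195 CPM in E12.5 and at 550.2, 571 and 529 CPM in E14.5. It was at 1079.9, 937 and 1012 CPM in ISC and at 3388, 2536 and 1790.3 CPM in AE. No group overlapped another, and AE replicate 1 was the highest library. The steps were log2 1.33 ± 0.20 (SE) from E12.5 to E14.5 (2.51-fold, edgeR adjusted p = 9.07e-05), 0.88 ± 0.19 to ISC (1.84-fold, edgeR adjusted p = 0.00142) and 1.35 ± 0.20 to AE (2.55-fold, edgeR adjusted p = 3.07e-05). Krt19 was 4.60-fold higher in ISC than in E12.5 and 4.68-fold higher in AE than in E14.5 (edgeR adjusted p = 2.74e-07 and 1.73e-07). Its step from ISC to AE was of the size of that of Krt8, and over the 12 libraries the log2 levels of both genes had a Pearson r of 0.96, a description in which the libraries of a group share their level.

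Krt20, a type I chain known from differentiated cells of the villus, was at 58.1, 56.8 and 69.3 CPM in E12.5 and at 29.2, 29.6 and 28.7 CPM in E14.5. It was at 26.8, 44.2 and 15.0 CPM in ISC and at 912, 2276 and 2038 CPM in AE. Every AE library was far above all others. E12.5 lay above both E14.5 and ISC with no overlap. The rise from ISC to AE was log2 5.93 ± 0.41 (SE), 60.9-fold, with edgeR adjusted p = 2.37e-08, at the 99.0 percentile of the log2 changes of all genes tested, and from E14.5 to AE 59.7-fold (edgeR adjusted p = 9.33e-09). Krt20 fell by 1.07 ± 0.34 on the log2 scale from E12.5 to E14.5 (2.10-fold, edgeR adjusted p = 0.0171), and this call was lost without E12.5 replicate 3 (edgeR adjusted p = 0.0565) or E14.5 replicate 3 (0.0506). ISC was 2.15-fold below E12.5 (edgeR adjusted p = 0.0104). Between E14.5 and ISC the difference was log2 -0.03 with a 95% interval from -0.76 to 0.70 (edgeR adjusted p = 0.947), and it turned to 0.014 without ISC replicate 1 and to 0.25 without ISC replicate 3.

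The spread of Krt20 within the adult groups was set beside that of the enterocyte markers. In AE the lowest Krt20 and the lowest enterocyte sum were both in replicate 1, while the highest Krt20 was in replicate 2 and the highest sum in replicate 3. In ISC the highest of both was in replicate 2 (1659 CPM of enterocyte markers) and the lowest of both in replicate 3 (784 CPM). In the embryo the enterocyte sum was higher in E14.5 than in E12.5 while Krt20 was lower. Most of that sum was Anpep, at 345 CPM in E12.5 and 667 CPM in E14.5. Of the 8 markers, 6 were called higher in E14.5, beside 23.6% of all genes. Lct and Treh had lower means in E14.5, as Krt20 did, with no call (4.54 to 2.59 and 0.294 to 0.0148 CPM). Without AE replicate 1 the change of Krt20 from ISC to AE was log2 6.24. The part of cell make-up in these values was not tested.

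Krt7, the other type II chain, known from ducts and other simple epithelia, was at 48.0, 36.7 and 46.6 CPM in E12.5 and at 74.6, 75.2 and 73.7 CPM in E14.5. It was at 65.5, 75.3 and 63.7 CPM in ISC and at 80.4, 58.8 and 39.3 CPM in AE. E12.5 was below E14.5 and ISC with no overlap, and the AE libraries spread across all other groups. Krt7 rose by log2 0.77 ± 0.19 (SE) from E12.5 to E14.5 (1.70-fold, edgeR adjusted p = 0.00468), and ISC was 1.56-fold above E12.5 (edgeR adjusted p = 0.00911). ISC against E14.5 gave log2 -0.13 with a 95% interval from -0.54 to 0.28 (edgeR adjusted p = 0.581), and AE against ISC log2 -0.18 with an interval from -0.60 to 0.23 (edgeR adjusted p = 0.413). AE against E14.5 gave log2 -0.31 with an interval from -0.73 to 0.10 (edgeR adjusted p = 0.150).

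The AE comparisons of Krt7 depended on single libraries. Without AE replicate 1, Krt7 was lower in AE than in ISC by log2 -0.47 (edgeR adjusted p = 0.0170) and lower than in E14.5 by log2 -0.60 (edgeR adjusted p = 0.00320). The call of 1.37-fold higher in AE than in E12.5 (edgeR adjusted p = 0.0425), where the groups overlapped, was then lost (log2 0.17, edgeR adjusted p = 0.318), as it was with upper-quartile scaling (log2 0.20, edgeR adjusted p = 0.365). That call against E12.5 was lost in 8 of the 12 fits without 1 library, among them fits that kept all AE libraries. Without AE replicate 3, AE against ISC was log2 0.080 (edgeR adjusted p = 0.666). Krt7 is also used by mesothelium, and 5 markers of it, among them Wt1, Msln and Upk3b, summed to between 6.82 and 10.3 CPM in E12.5 and between 26.3 and 28.3 CPM in E14.5. Most of the E14.5 sum was Upk3b at 21.6 ± 1.14 CPM, and Msln was also higher there than in E12.5 (3.44 against 1.57 CPM). Upk1b was alike in both stages (1.10 and 1.06 CPM). Lrrn4 had a lower mean in E14.5 (1.09 against 2.03 CPM), with no call. In ISC the sum was between 0.253 and 1.17 CPM with Wt1, Msln and Upk3b at 0. In AE the sum was between 3.43 and 5.55 CPM with Wt1 at 0, and most of it was Upk1b at 3.97 ± 0.885 CPM. The part of mesothelial RNA in the Krt7 values was not tested. Markers of pancreas, whose ducts use Krt7 and Krt19, summed to 69.1, 50.4 and 163.7 CPM in E14.5 replicates 1, 2 and 3. Their list was of pancreas as a whole, not of its ducts. Most of the sum in each E14.5 library was Ctrb1, at 49.9, 32.2 and 128 CPM. Cpa1 was alike in E12.5 and E14.5 (12.6 and 13.6 CPM), and Pdx1 was highest in AE (16.1 ± 3.89 CPM). The part of pancreatic RNA in the levels of Krt7 and Krt19 was not tested.

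Krt23, a type I chain whose function is less well known, was at 1.41, 0.799 and 0.770 CPM in E12.5 and at 7.82, 7.73 and 7.47 CPM in E14.5. It was at 43.5, 27.0 and 34.1 CPM in ISC and at 12.1, 11.3 and 12.9 CPM in AE. No group overlapped another, and the order from low to high was E12.5, E14.5, AE and ISC. Krt23 rose by log2 2.92 ± 0.24 (SE) from E12.5 to E14.5 (7.56-fold, edgeR adjusted p = 3.89e-07) and by 2.18 ± 0.20 to ISC (4.53-fold, edgeR adjusted p = 3.15e-07), then fell by 1.53 ± 0.20 on the log2 scale to AE (2.89-fold, edgeR adjusted p = 8.90e-06). ISC was 34.2-fold above E12.5 (edgeR adjusted p = 2.10e-10). AE was 1.57-fold above E14.5 (edgeR adjusted p = 0.00780), a call lost with upper-quartile scaling (log2 0.41, edgeR adjusted p = 0.0696).

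**Figure D3:**
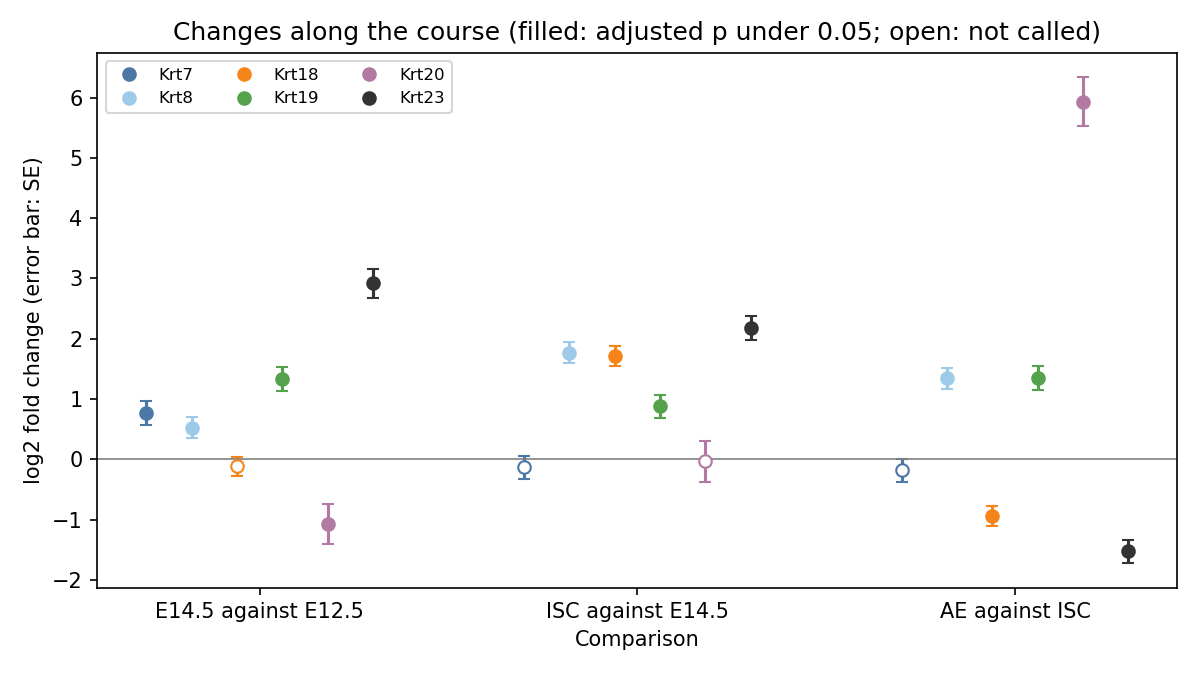
Log2 fold change with its standard error (edgeR fit of all 12 libraries) for each gene in 3 successive comparisons, filled where the adjusted p was under 0.05. Krt20 rose by 5.93 from ISC to AE, Krt8 and Krt19 rose in all 3 comparisons, and Krt18 and Krt23 were the genes that fell from ISC to AE.

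As a share of all gene counts, the 6 genes together made up 0.0607% ± 0.00538 (SD, n = 3) at E12.5, 0.105% ± 0.00259 at E14.5, 0.208% ± 0.0247 for ISC and 0.431% ± 0.0763 for AE. The AE libraries stood at 0.490%, 0.458% and 0.345%, and no group overlapped another. The exact permutation test over the 4 groups gave p = 6.49e-05, the smallest it can give, and 0.000195 after adjustment over the 9 measures.

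The make-up of that sum changed as well. Krt20 held 11.4% ± 1.75 (SD, n = 3) of the keratin counts at E12.5, 3.20% ± 0.0709 at E14.5, 1.44% ± 0.737 for ISC and 30.5% ± 13.3 for AE (exact permutation test, adjusted p = 0.000195). Its AE shares were 15.6%, 34.8% and 41.1%, with replicate 1 nearest to E12.5. Krt18 held 22.2% ± 1.75, 12.2% ± 0.137, 18.2% ± 1.81 and 3.25% ± 0.603 in the same order of groups (exact permutation test, adjusted p = 0.000195). In AE it was thus a small part of the sum in every library, between 2.88% and 3.95%.

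Krt19 held 40.2% ± 3.97 (SD, n = 3) at E12.5, 60.3% ± 0.290 at E14.5, 51.2% ± 4.94 for ISC and 44.2% ± 11.8 for AE. In AE its shares of the counts were 57.8%, 38.8% and 36.1%. With counts divided by transcript length, Krt19 held 62.4%, 43.6% and 40.7% in the AE libraries and Krt20 held 13.7%, 32.0% and 37.9%, so Krt19 was above Krt20 in each, although by counts alone Krt20 was above it in replicate 3. The groups differed (exact permutation test, adjusted p = 0.0327), and this call was lost in 5 of the 12 tests without 1 library, those without E12.5 replicate 2 or 3 or any E14.5 library, with adjusted p from 0.0647 to 0.0859. Krt8 held a steadier share, 18.0% ± 0.555, 15.3% ± 0.450, 23.9% ± 2.84 and 20.8% ± 1.83 (exact permutation test, adjusted p = 0.00301). Krt7 fell from 8.06% ± 0.716 in E12.5 and 8.17% ± 0.215 in E14.5 to 3.47% ± 0.455 in ISC and 1.02% ± 0.308 in AE (exact permutation test, adjusted p = 0.000779). Krt23 was at most 1.97% in any library, and its share was highest in ISC at 1.76% ± 0.324 (exact permutation test, adjusted p = 0.000584).

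**Figure D4:**
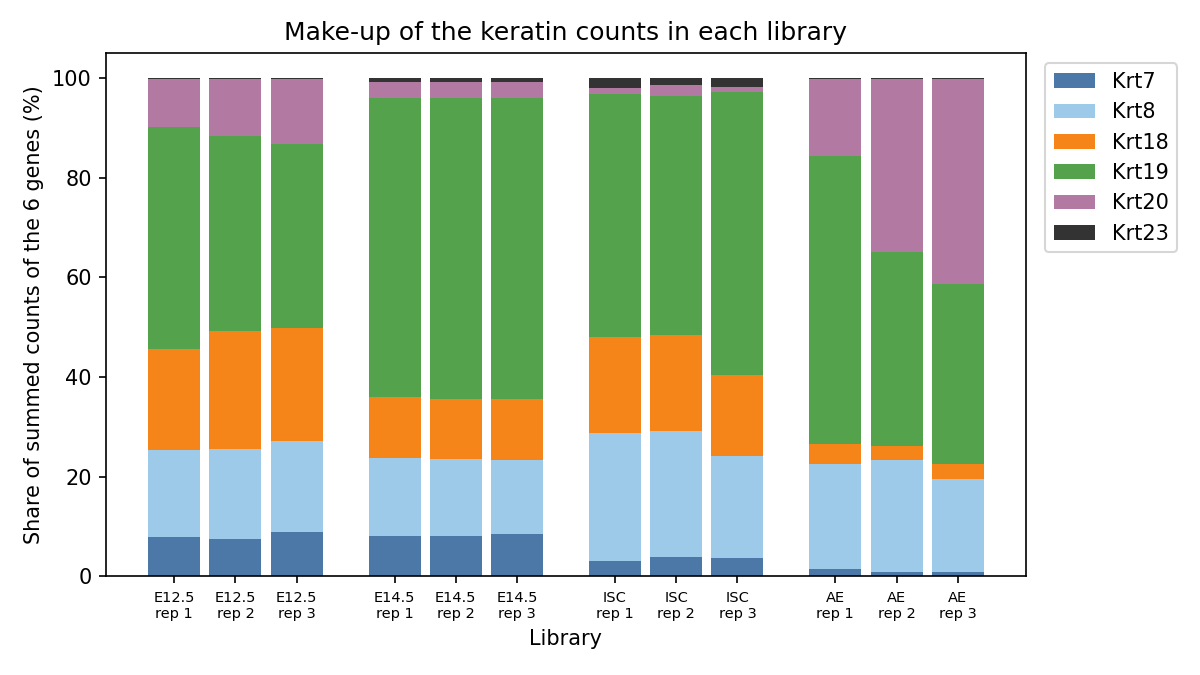
Share of each gene (%) in the summed counts of the 6 keratin genes, 1 bar per library. In E14.5 and ISC most of the bar is Krt19, Krt8 and Krt18, with Krt7 at a mean of 8.17% in E14.5 and 3.47% in ISC. In AE Krt20 takes 15.6% to 41.1% and Krt18 at most 3.95%.

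Levels of different genes were ranked per kilobase (kb) of principal transcript, since counts grow with transcript length. The rank of Krt7 rests on its length of 4.094 kb. Before division by length Krt7 was above Krt23 in ISC (68.2 against 34.9 CPM). In E12.5 the order was Krt19 at 139 ± 27.3 CPM per kb, Krt18 at 83.3 ± 1.64, Krt8 at 49.6 ± 3.61, Krt20 at 31.9 ± 3.56, Krt7 at 10.7 ± 1.498 and Krt23 at 0.635 ± 0.231. In ISC it was Krt19 at 641 ± 45.3 CPM per kb, then Krt18 at 252 ± 48.8 and Krt8 at 244 ± 52.4, which overlapped, and then Krt23 at 22.3 ± 5.27, Krt7 at 16.7 ± 1.53 and Krt20 at 14.9 ± 7.64, which overlapped as well. In AE Krt19 stood at 1632 ± 507 CPM per kb, Krt20 at 904 ± 378, Krt8 at 619 ± 136, Krt18 at 131 ± 29.9, Krt7 at 14.54 ± 5.03 and Krt23 at 7.73 ± 0.522. Krt20 was thus among the 3 lowest in E12.5, E14.5 and ISC and next to Krt19 by its mean in AE, where its range of 474 to 1181 CPM per kb overlapped those of Krt8 and Krt19. In E14.5 Krt19 stood at 349 ± 13.1 CPM per kb, far above Krt18 at 77.1 ± 2.00 and Krt8 at 71.5 ± 4.46, with Krt7 at 18.2 ± 0.188, Krt20 at 15.1 ± 0.219 and Krt23 at 4.90 ± 0.117 below them.

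The genes whose log2 levels most resembled each keratin over the 12 libraries were sought among 12119 other genes. As points of 1 group share their level, these Pearson coefficients describe the 4 group means more than single libraries, and the closest of so many genes are high by selection. For Krt8 they were Gadd45a (0.998), a growth-arrest gene, Trim15 (0.996) and Akr1c14 (0.995). Gadd45a went from 3.44 ± 0.494 CPM in E12.5 through 5.79 ± 0.215 and 19.0 ± 2.73 to 53.4 ± 13.4 CPM in AE. For Krt19 they were Itgam (0.991), Lmna (0.989), which encodes lamin A/C, and Cyp4f40 (0.989). Among those for Krt20 were Nt5e (0.992), which encodes the ectoenzyme CD73, and H2-Q1 (0.990). Nt5e was between 0.358 and 1.71 CPM on average in the other groups and at 74.7 ± 42.3 CPM in AE.

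For Krt18 the closest genes were Mettl20 (0.983), Unc45a (0.982) and Rhob (0.976), a small GTPase. For Krt23 they were Sidt1 (0.991), Fgr (0.988) and Cldn2 (0.988), a tight-junction claudin that forms cation pores. Cldn2 was at 17.6 ± 2.81 CPM at E12.5, 92.5 ± 0.568 at E14.5, 498 ± 91.9 for ISC and 207 ± 51.0 for AE, the same order of groups as Krt23. For Krt7 the closest were Trmu (0.930), Zdhhc6 (0.928) and Hars2 (0.926), lower coefficients than for any other member. Among the 6 genes themselves the extremes were Krt8 with Krt19 (0.96) and Krt7 with Krt20 (-0.26), and Krt8 with its partner Krt18 reached 0.63.

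Of 46 other keratin genes in the files, 11 passed the filter on low counts, and only Krt12 reached a mean of 5 CPM in any group. Krt12, a type I keratin best known from the cornea, was at 6.55, 12.2 and 7.42 CPM in AE and at most 1.10 CPM in any other library, and it rose from ISC to AE (log2 4.88 ± 0.61, edgeR adjusted p = 6.71e-06). Krt4, of stratified epithelia, was at 4.69 ± 1.05 CPM in ISC and at most 0.105 CPM elsewhere. The sum of 6 markers of stratified epithelium, Krt4 among them, did not exceed 9.37 CPM in any library, with Krt5 at 0 in ISC and AE.

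Genes of desmosomes and other keratin anchors were examined next, 17 of 18 passing the filter on low counts. From E12.5 to E14.5, 10 rose and 4 fell, 82.4% of those tested beside 49.2% of all genes, with a median log2 change of 0.44 against -0.02 over all genes. From E14.5 to ISC, 12 rose and 3 fell, 88.2% beside 60.7%, with a median of 0.95 against -0.0048 over all genes. From ISC to AE, 10 rose and 3 fell, 76.5% beside 67.8%, with a median of 0.61 against -0.05. Upper-quartile scaling would lower the median of all genes in this last comparison by a further 0.20.

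Plakophilin 1 (Pkp1), a desmosomal plaque protein, was all but absent in the embryo, at 0.197 ± 0.133 CPM in E12.5 and 0.0506 ± 0.0330 in E14.5, and stood at 81.9 ± 4.40 CPM in ISC and 47.4 ± 13.2 CPM in AE. Epiplakin (Eppk1), which binds keratin filaments, was also highest in ISC, at 387 ± 55.5 CPM against 43.8 ± 3.01 in E14.5 and 175 ± 24.3 in AE (ISC against E14.5, log2 3.14 ± 0.14, edgeR adjusted p = 2.32e-10). Desmoplakin (Dsp), which ties keratin filaments to the desmosome, was at 561 ± 44.8 CPM in E12.5 and lower, at 334 ± 12.9 CPM, in E14.5. From E14.5 Dsp rose to 1228 ± 121 CPM in ISC (log2 1.88 ± 0.14, edgeR adjusted p = 4.66e-08). Pof1b, an actin-binding protein of epithelial junctions, rose at each step, from 3.80 ± 1.26 through 10.3 ± 0.951 and 42.6 ± 3.14 to 97.4 ± 11.96 CPM.

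Of the large cross-linkers of the plakin family, Plec, Dst and Evpl rose from ISC to AE and Eppk1 fell (log2 -1.14 ± 0.13, edgeR adjusted p = 3.15e-06), while Dsp and Ppl gave log2 -0.060 and -0.29 (edgeR adjusted p = 0.719 and 0.121). Plectin (Plec) was at 160 ± 13.4 CPM in ISC and at 516, 1057 and 1061 CPM in AE (log2 2.45 ± 0.22, edgeR adjusted p = 2.25e-07), with replicate 1 lowest as for Krt20. Dystonin (Dst) was at 403 ± 15.5 CPM at E12.5, 152 ± 9.92 at E14.5, 104 ± 5.34 for ISC and 578 ± 177 for AE. It fell between the embryonic stages (log2 -1.41 ± 0.18, edgeR adjusted p = 2.20e-05) and rose from ISC to AE (log2 2.47 ± 0.19, edgeR adjusted p = 5.27e-08). Envoplakin (Evpl) and plakophilin 3 (Pkp3) rose from ISC to AE by log2 1.47 ± 0.13 and 1.33 ± 0.11 (edgeR adjusted p = 2.96e-07 and 8.52e-08). Integrin beta 4 (Itgb4), which anchors keratins through plectin at the basal side, went from 16.9 ± 2.53 CPM in E12.5 through 45.5 ± 0.725 and 157 ± 10.4 to 375 ± 82.9 CPM in AE.

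**Figure D5:**
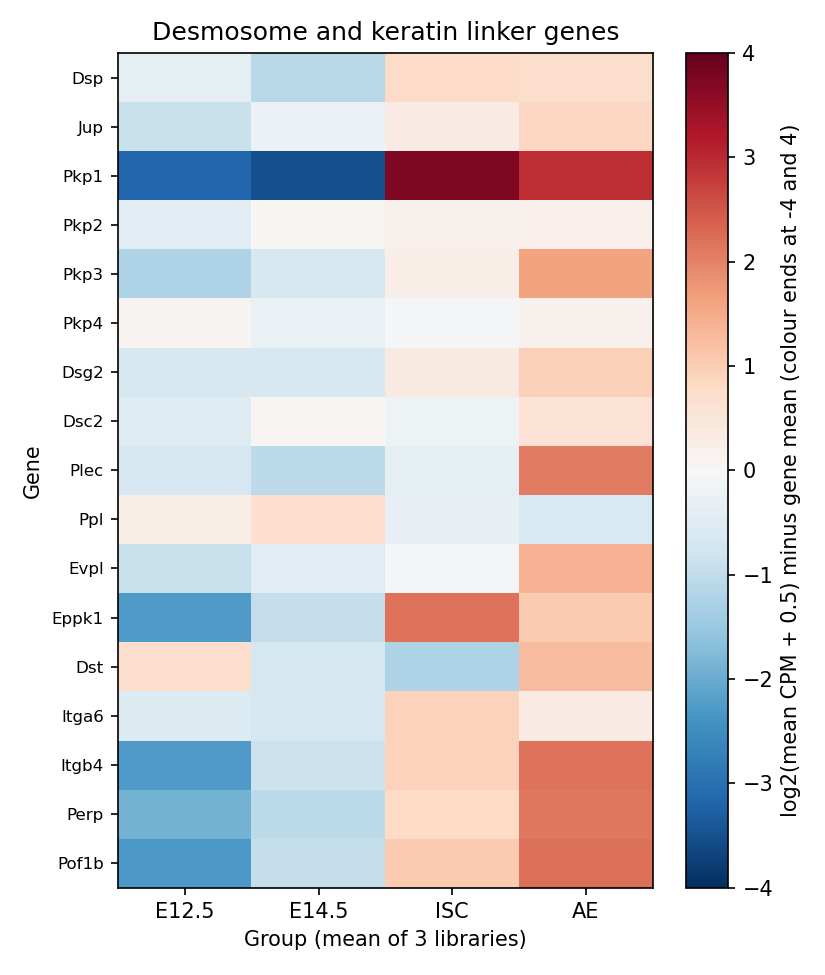
Mean level of 17 desmosome and keratin-linker genes in each group as log2(mean CPM + 0.5), centred on the mean of each gene over the 4 groups (red above, blue below, colour ends at -4 and 4). Pkp1 and Eppk1 are reddest in ISC, Plec, Itgb4, Perp and Pof1b in AE, and Ppl is the gene whose highest group is embryonic.

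Of 16 genes of other intermediate filaments, 14 passed the filter on low counts. From E12.5 to E14.5, 8 of them rose and 2 fell, with a median log2 change of 0.57, where 23.6% of all genes rose and 25.6% fell. From E14.5 to ISC, 4 of them rose and 8 fell, with a median log2 change of -1.80, where 30.2% of all genes rose and 30.6% fell. These medians include genes of low level, among them Des, Nefl, Nefm and Nefh, each with means under 5 CPM in E14.5 and ISC. Vimentin (Vim), the filament protein of mesenchyme, was at 160 ± 24.2 CPM at E12.5, 72.6 ± 0.801 at E14.5, 2.09 ± 0.651 for ISC and 4.36 ± 1.41 for AE. Nestin (Nes), of progenitor and neural cells, was at 16.1 ± 3.91, 53.9 ± 2.304, 0.733 ± 0.639 and 0.0506 ± 0.0442 CPM. The 11 markers of mesenchyme and smooth muscle summed to between 23.2 and 32.6 CPM in E12.5 and between 251 and 329 in E14.5. In the adult groups they summed to at most 2.85 CPM. Between the embryonic stages, Vim was higher in the stage with the lower mesenchymal sum. Nes was higher in the stage with the higher sum, as was Des, which is itself among these markers. The part of mesenchymal RNA in these values was not tested.

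Of the nuclear lamins, Lmna rose at each step, from 2.42 ± 0.635 through 8.48 ± 0.180 and 23.8 ± 6.84 to 58.7 ± 10.2 CPM, and Lmnb1, of lamin B1, fell from 82.3 ± 7.35 CPM in ISC to 36.5 ± 12.7 in AE (log2 -1.16 ± 0.19, edgeR adjusted p = 7.77e-05). Lmnb2, of lamin B2, was at 31.0 ± 1.98, 43.0 ± 1.36, 54.8 ± 2.97 and 40.6 ± 2.65 CPM, and it too fell from ISC to AE (log2 -0.43 ± 0.10, edgeR adjusted p = 0.00141). All 12 genes of keratin-binding adaptors and chaperones were tested. From E12.5 to E14.5, 3 rose and 1 fell, 33.3% of the list beside 49.2% of all genes. From E14.5 to ISC 3 rose and 3 fell, 50% beside 60.7%, and from ISC to AE 6 rose and 2 fell, 66.7% beside 67.8%, so the list was called no more often than genes at large. Stratifin (Sfn), the epithelial 14-3-3 protein, rose at each step, by log2 2.47 ± 0.23, 1.67 ± 0.20 and 0.76 ± 0.20 (edgeR adjusted p = 1.28e-06, 6.49e-06 and 0.00335), to 70.8 CPM in AE. Tradd, an adaptor of the TNF receptor that binds Krt18, rose from 7.29 CPM in ISC to 21.8 CPM in AE (log2 1.57 ± 0.17, edgeR adjusted p = 1.86e-06) while Krt18 itself fell, and Fam83h, which recruits casein kinase to keratin filaments, rose from 55.3 to 99.9 CPM (log2 0.85 ± 0.13, edgeR adjusted p = 5.54e-05).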

How the data were processed

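RNA-seq gene counts of 12 mouse small-intestine libraries were used. The authors deposited raw read counts per gene symbol, 1 file per library, with no normalisation. Libraries were made from 50 ng of RNA with an amplification kit (Ovation) and NEBNext reagents, per the labels' protocols. HTSeq 0.6.1p1, STAR 2.3.1z13, bcl2fastq 1.8.4, DESeq2 1.6.3, SAMtools 1.2 and the build mm9 are named in the submitters' processing notes. For what each was used, with which annotation and strand setting, was not given in the sources used here. Genes that overlap or run antisense to each other therefore cannot be separated. The 5 closing entries that name no gene were left out of all sums and tests. Reads outside genes were 33.4% to 58.1% and ambiguous reads 0.531% to 1.00% of the reads listed.

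Groups and replicate numbers came from the titles. Counts were tested with edgeR 4.0.16 (R 4.3.3), using the quasi-likelihood F test in a model of all 12 libraries with a mean for each group, the edgeR expression filter (15342 genes kept) and TMM scaling (factors 0.696 to 1.16). The common biological coefficient of variation was 0.154. P-values were adjusted over all genes tested by the Benjamini-Hochberg method at 0.05. On counts of 15342 genes simulated for AE against ISC, with 100 genes changed by each fold, the test recovered 71% of the 2-fold and 87% of the 4-fold changes. In the data 67.8% of genes were called in this comparison, far more than were changed there. The adjusted threshold then differs, so these rates need not hold for the reported tests. Shares and ratios within a library were tested by exact permutation of libraries over the 4 groups, a test of any difference with no direction, at an adjusted p of 0.05 over 9 measures. Replicates of each group differed by more than sampling noise, with a chi-square per degree of freedom from 3.48 to 146. Adult replicates are 1 gut each, and nothing states that embryonic pools came from separate litters.

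Named genes are the 6 members, the 3 genes most correlated with each, other keratins of at least 5 CPM, and of each list up to 4 genes of at least 5 CPM with the largest called change in a comparison. Some genes covered by this rule are not reported here. The members, lists and tests were chosen with earlier results of these data known. Transcript lengths and 50-base sharing came from GENCODE M21 transcripts, a later build than the mm9 of the files, and promoter windows from RefSeq (GRCm38.p6), where 5 of 6 members matched. Alternatives were relative log expression and upper-quartile scaling, no filter on low counts, DESeq2 1.42.0, limma-voom (limma 3.58.1), a replicate block, only the 6 libraries compared, each library left out, counts per kb, and the 10 largest genes of each library left out of the summed share.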

Additional observations from a re-analysis of the deposited data

How the results depend on the processing

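Each fold change, count, share and ratio was recomputed under every alternative. Of the values for single genes, 660 kept their direction and their side of the threshold, 18 lost their call, 3 gained one and 3 changed sign, none of the last with a call. Those 3 were Krt20 in ISC against E14.5, which ranged from -0.49 to 0.25 with 1 library left out and was 0.014 without ISC replicate 1 and 0.25 without ISC replicate 3 (edgeR adjusted p = 0.981 and 0.512), and Krt7 in AE against ISC, which ranged from -0.47 to 0.080 and was 0.080 without AE replicate 3 (edgeR adjusted p = 0.666). The number of keratin genes called in E14.5 against E12.5 ranged from 3 to 5 with 1 library left out, and was 3 without E12.5 replicate 3. The highest minus the lowest group mean of the Krt19 share ranged from 18.4 to 22.8 percentage points with 1 library left out. Its exact permutation test lost the call in 5 of those 12, with adjusted p from 0.0647 to 0.0859. With the other alternatives no count of genes called moved by over 1.5 times and no test of a share or ratio changed its call. Leaving out 1 library gave 4 calls in ISC against E14.5 throughout, 5 or 6 in AE against ISC, 6 in ISC against E12.5, and 5 or 6 in each of the other comparisons. Upper-quartile scaling shifted the median of all genes by -0.20 in AE against ISC, -0.24 in AE against E14.5 and -0.26 in AE against E12.5. Under it Krt7 was called lower in AE than in E14.5 (log2 -0.55, edgeR adjusted p = 0.0191). The call of Krt7 in AE against E12.5 was also lost in the fit of those 6 libraries alone (edgeR adjusted p = 0.0742) and, of the fits without 1 library, in 8 of 12. Deviations of same-numbered libraries correlated between -0.11 and 0.14, and for AE against ISC at 0.035, 0.14 and 0.072. Differently numbered libraries were not set beside them, so these values cannot show whether replicate numbers pair the samples. With the replicate block, 5, 4, 5, 6, 5 and 5 genes were called in the comparisons in the order of the report, and the only call that changed was that of Krt7 in AE against E12.5 (log2 0.42, edgeR adjusted p = 0.0528). With 3 libraries a group, the difference of Krt18 between the embryonic stages was not called. Whether changes of that size can be detected was not tested. Intervals cover the spread between these libraries only.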
